A study of Arabidopsis thaliana with 9 samples.

Results

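Young miRNAs are the annotated Arabidopsis miRNA genes whose family numbers are high, which for the most part were found late, in few plant species, and have weak or unknown targets. Here they were taken as the miRNA rows of the small RNA table with a family number of 830 or higher, without the miR857, miR858 and miR2111 families. Of 326 miRNA rows in all, 177 met this rule, and 6 of them held one value in all 9 libraries and were left out (MIR4243, MIR5025, MIR5643b, MIR8167e, MIR8182 and MIR10515). The remaining 171 rows, from 141 families, are described here beside 143 other miRNA rows and the 33159 features of the table that were tested. The rule goes by number alone, and the occurrence of the young or the other families in other species was not examined. The other miRNA rows are all those outside the rule and not a list of ancient families. MIR158a and MIR161 are the highest of them.

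The libraries were made from total RNA of shoots of wild type Col-0 plants, with 3 biological replicates for each of 3 conditions (9 libraries). All plants spent 14 days on MS medium with iron, and no plant carried a transgene or mutation by the labels. Fe resupply plants were then moved to medium without iron for 3 days and back to medium with iron for the last 24 hours, -Fe plants had 3 days and then another 24 hours without iron, and +Fe plants had iron throughout, with the same transfers. The labels also describe growth on soil, while the conditions are given for plates. The table holds small RNAs only, so transcripts that mark the shoot were not measured. The depth of the libraries is unknown, as the table gives normalized values, and libraries of one condition correlated with r between 0.994 and 0.996 over all features.

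Plant miRNAs are cut by DCL1 from hairpin transcripts as short duplexes, and one strand is loaded into AGO1, where its first bases, the seed, lead the pairing with target mRNAs. Newly arisen hairpins are often processed in part by the other Dicer enzymes, and DCL3 then makes RNAs of 24 nt that resemble the siRNAs of transposon silencing. Ancient families such as miR156 or miR398 are usually abundant and steer development or nutrient supply, while young families are known for low levels and for being gained and lost quickly.

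The mature sequences below are those of the miRNAs on which the results turn, as RefSeq gives them for TAIR10.1. They are written from 5′ to 3′ with the seed (bases 2 to 8) in capitals. The first 4 come from neighbouring hairpins on chromosome 4, the next 2 from another pair of neighbours on that chromosome, and the last 4 from single loci whose libraries did not overlap in at least 1 comparison.
miR5026: aCUCAUAAgaucgugacacgu
miR850: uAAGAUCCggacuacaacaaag
miR863-5p: uUAUGUCUuguugaucucaau
miR863-3p: uUGAGAGCaacaagacauaau
miR845a: cGGCUCUGauaccaauugaug
miR845b: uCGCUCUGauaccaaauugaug
miR8175: gAUCCCCGgcaacggcgcca
miR5664: aUAGUCAAuuuuaucggucug
miR5652: uUGAAUGUgaaugaaucgggc
miR5020b: aUGGCAUGaaagaaggugaga

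No 2 of these 10 share a seed. Over all members, 15 seeds occur in more than 1 annotated mature RNA, and nearly all of these sets are copies within a family. The largest hold 5 mature RNAs each, namely the miR854 copies with AUGAGGA, the miR8167 copies with GAUGUGG and the miR5645 copies with UUUGAGU. The 3 sets that join different family numbers are miR5640 with miR1886.1 (GAGAGAA), miR5020a with miR5641 (GGAAGAA) and miR5595a with miR5995b (CAUAUGA). Of the 208 annotated mature RNAs of the members, 147 (70.7%) match the genome at a single place, against 111 of 207 of the other miRNA rows. The highest number of exact matches was 45, for miR855.

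As a class the young miRNAs were scarce. The deposited values are log2 normalized, so that 1 unit is a doubling, and the median over the members of the mean of the 9 libraries was 3.48, against 6.29 for the other miRNA rows and 3.86 for all features tested. A mean of 8 or more was reached by 8 young miRNAs and by 46 other miRNA rows, and 26 young miRNAs had a mean below 0, near the lowest values of the table. The highest young miRNA, MIR5026, had a mean of 9.43, and 34 other miRNA rows lay above it, up to 15.19. The mean was above the median of all features for 78 young miRNAs (45.6%) and for 100 other miRNA rows (69.9%).

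**Figure D1:**
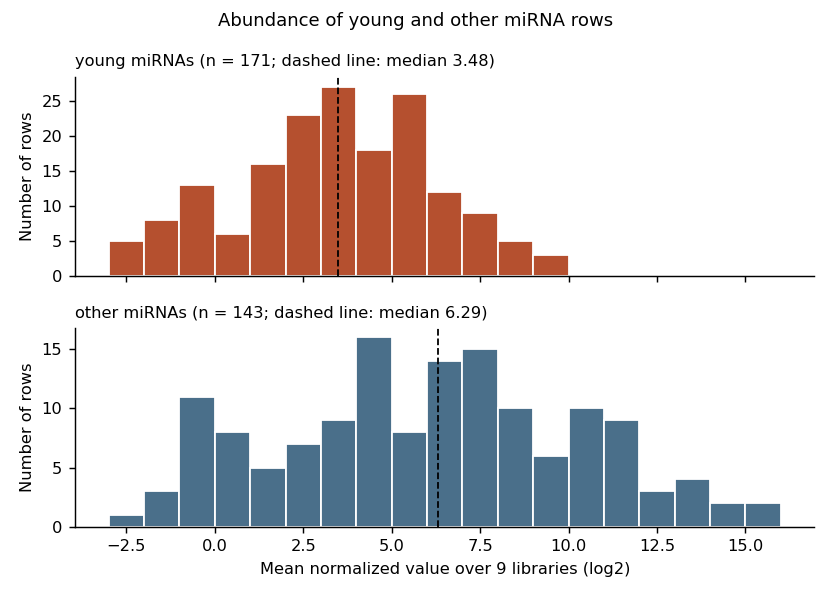
Number of miRNA rows by their mean normalized value over the 9 libraries (log2, bins of 1 unit), with 171 young miRNAs above and 143 other miRNA rows below. The dashed lines mark the medians, 3.48 for young miRNAs and 6.29 for the others, and young miRNAs have no row above 9.43 while the others reach 15.19.

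The abundance of the class rested on few members. After back-transformation of the log2 values, the 10 most abundant young miRNAs made up 48.1% of the summed value of the class and the top 3 made up 22.5%, while the lower 85 rows together made up 3.97%. In order of their mean, the 10 were MIR5026 (9.43), MIR845a (9.19), MIR863 (9.15), MIR8175 (8.66), MIR846 (8.45), MIR843 (8.33), MIR5652 (8.20), MIR3932b (8.13), MIR845b (7.85) and MIR5020b (7.64). For all 9 pairs of neighbours in this order the library values overlapped, so the order between neighbours is not firm. At the other end MIR4227, MIR5021, MIR5019, MIR2938 and MIR5018 were tied, each with a mean of -2.15 and a range over the 9 libraries of at most 0.03. The same 9 values were held by 4 sets of rows (9 rows in all), and these are MIR2938 with MIR5019 and MIR5021, MIR5649a with MIR5649b, MIR5998a with MIR5998b, and MIR5595a with MIR5995b, of which only the last pair has a mean above 0 (5.70).

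Rows of one family differed widely in level. Of the 141 families, 17 have several rows tested (47 rows), and the median distance between their highest and lowest mean was 1.34 on the log2 scale. The widest was 6.31, between MIR5020b (7.64) and MIR5020c (1.33). The 5 rows of the miR854 family, whose miRNA matches Athila retrotransposons and was reported to act on the RNA-binding protein gene UBP1b, lay between 0.42 (MIR854a) and 3.92 (MIR854b). The 6 rows of family 5645 lay between 3.74 (MIR5645c) and 7.37 (MIR5645f), and the 4 of family 5635 between 5.94 and 7.01.

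At most young miRNA loci with a small RNA cluster, the most abundant RNA of that cluster was not exactly the annotated miRNA. The table gives for each small RNA cluster called by ShortStack such a lead RNA, and a cluster overlapped the hairpin of 138 of the 171 young miRNAs (80.7%) and of 119 of the 143 other miRNA rows (83.2%). The lead RNA was the annotated mature miRNA itself at 36 young loci (26.1% of those with a cluster) and at 80 others (67.2%). At a further 13 young loci and 14 others the lead RNA was offset from the mature miRNA, sharing at least 16 bases with it. It lay inside the hairpin at 84 young loci (60.9%), 13 of them on the opposite strand, against 110 others (92.4%). These shares are a description of the deposited clusters, with no test.

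The lengths of the lead RNAs differed too, again as a description. The lead RNA had 24 nt at 51 young loci (37.0%) and 8 others (6.72%), and 20 to 22 nt at 68 young loci (49.3%) and 106 others (89.1%). Among the 62 young loci led by RNAs of 23 or 24 nt, the lead RNA began with A in 39, the first base that AGO4 is known to prefer. The same held for 7 of the 11 other loci of that kind, so this was not particular to young loci. At 23 young loci a lead RNA of 23 or 24 nt matched the hairpin on either strand, against 5 other loci. Those on the opposite strand are not products of the hairpin transcript. All 5 MIR854 rows were led by 24 nt RNAs not found in the hairpin. The clusters at young loci were longer, with a median of 434.5 nt against 152 nt.

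**Figure D2:**
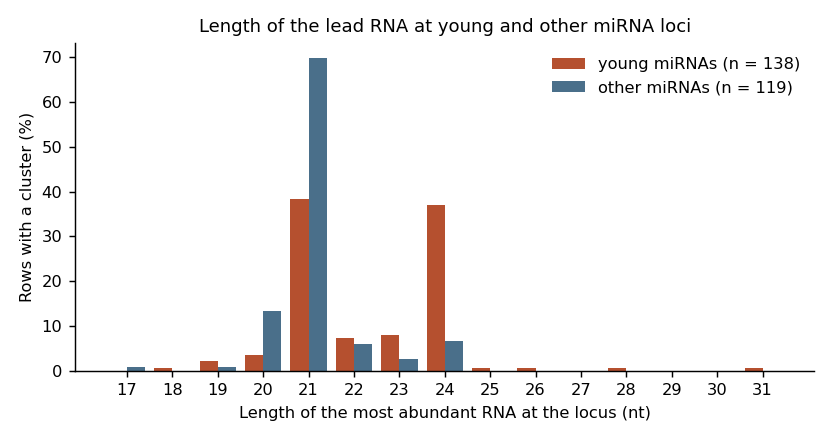
Share of miRNA loci with a cluster (%, vertical axis) by the length of the lead RNA of that cluster in nt (horizontal axis), for 138 young and 119 other miRNA loci. At 21 nt stand 38.4% of young and 69.7% of other loci, and at 24 nt 37.0% of young and 6.72% of other loci.

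Many members lie in or across from genes. A hairpin overlapped a protein-coding gene on either strand for 70 young miRNAs (40.9%) and 22 others (15.4%). MIR838 lies in DCL1, the gene of the enzyme that makes miRNAs, on chromosome 1 (28500 to 28706, TAIR10.1). MIR840, known to act on WHIRLY3, lies on the strand of AT2G02750, a pentatricopeptide repeat gene (chromosome 2, 771337 to 771562), and MIR835 on that of AT1G76065, annotated as an LYR family protein of Fe/S cluster biogenesis (chromosome 1, 28544454 to 28544853). The strand setting of the counting is not given in the sources used here, so reads from a hairpin and from an overlapping gene cannot be told apart.

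None of the 171 young miRNAs passed the limits of the study (an FDR under 0.1, and 0.5 or more of log2 fold change in either direction, by limma over all 33159 features) in any of the 3 comparisons. In -Fe against +Fe 0 passed, beside 0.504% of all features and 7 of the 143 other miRNA rows. In Fe resupply against +Fe 0 passed, beside 0.127% and 8 other rows, and in Fe resupply against -Fe 0 passed, beside 0.528% and 4 other rows. At an unadjusted p under 0.05 in limma, the young miRNAs numbered 17 (11 higher, 6 lower, 8.02% of all features), 18 (14 higher, 4 lower, 6.63%) and 20 (14 higher, 6 lower, 11%) in the same order of comparisons. Without the fold limit, an FDR under 0.1 was reached by MIR5664 in -Fe against +Fe (0.799% of all features), by MIR850 in Fe resupply against +Fe (0.175%) and by MIR850 and MIR8175 in Fe resupply against -Fe (1.12%).

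Differences between conditions were small on the deposited scale for nearly every member. Scarce rows vary little on this scale. The median range over the 9 libraries was 0.24 for the 98 members with a mean under 4 and 0.43 for the other 73. That few scarce rows neared the fold limit therefore says little about them. The log2 fold changes of the 171 lay between -0.50 and 0.40 (-Fe against +Fe), between -0.28 and 0.48 (Fe resupply against +Fe) and between -0.46 and 0.44 (Fe resupply against -Fe), with a median standard error of 0.093. Their medians were -0.00052, 0.016 and 0.022 in that order, beside -0.0015, -0.0017 and 0.0022 for all features. For the other miRNA rows the medians were 0.030, 0.023 and 0.0059. Among the 41 young miRNAs whose back-transformed mean reached 50, the medians were 0.022, 0.087 and 0.091, beside -0.013, 0.012 and 0.039 for the 7332 features above that level. By contrast, the 7 rows of miR397, miR398, miR408 and miR857, which are known to fall when copper is plentiful, had medians of -1.505, -1.80 and -0.29. The 3 comparisons share libraries in pairs, so their values are not independent of each other.

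Members were also grouped by where their lead RNA matched. The 57 led by 20 to 22 nt RNAs matching the hairpin on either strand made up 54.8% of the summed value of the class. Their median log2 fold change was 0.0033 in the -Fe to +Fe comparison. After resupply it was 0.049 with +Fe as the baseline and 0.081 with -Fe as the baseline. In the last of these comparisons 45 of the 57 had a positive fold change, against 52 of the 104 other miRNA rows of that kind and 16859 of the 33159 features, a difference that was not tested. The 54 members whose lead RNA had no exact match in the hairpin made up 17.5%, with medians of -0.0090, -0.0016 and 0.013 in the same order, and 3 of these lead RNAs (at MIR865, MIR4239 and MIR5027) had no exact match in the genome either.

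**Figure D3:**
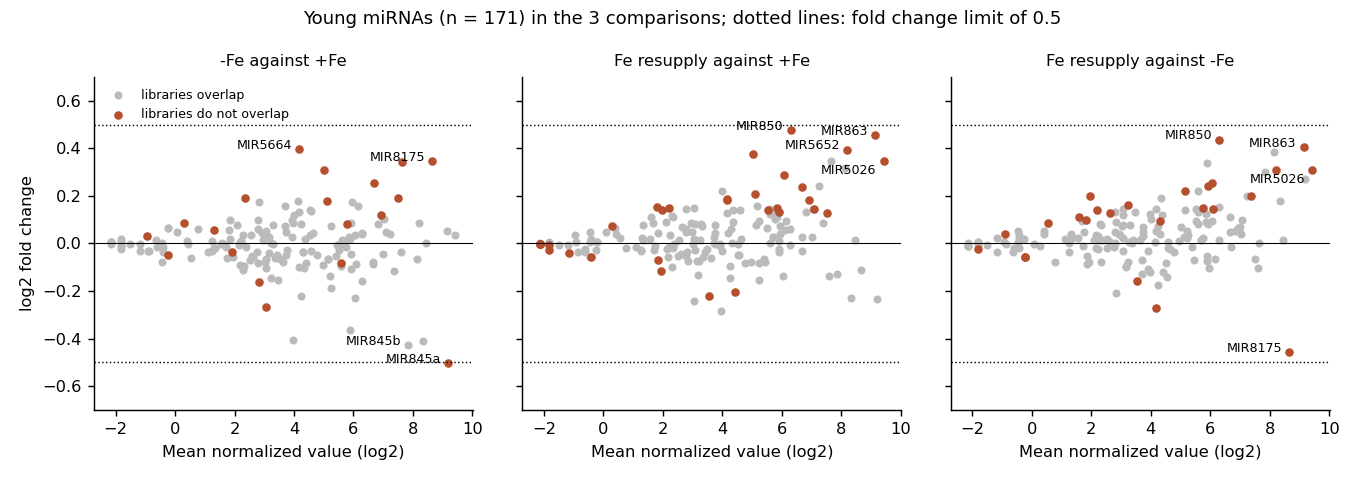
Log2 fold change of each of the 171 young miRNAs (vertical axis) against its mean normalized value (log2, horizontal axis) in the 3 comparisons, with members whose libraries do not overlap between the conditions in colour and dotted lines at the fold change limit of 0.5. All points lie within the lines except MIR845a at -0.50 in -Fe against +Fe, and MIR850 and MIR863 lie highest in both resupply panels, at 0.48 and 0.46 against +Fe and at 0.44 and 0.40 against -Fe.

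Members whose libraries did not overlap between conditions were counted beside all features. In -Fe against +Fe, 13 members had all -Fe libraries above all +Fe libraries (7.60% of the members, 7.15% of all features) and 6 had them below (3.51%, 6.41% of all features). In Fe resupply against +Fe the counts were 20 above (11.7%, 5.35% of all features) and 12 below (7.02%, 5.73%), and in Fe resupply against -Fe 19 above (11.1%, 7.27%) and 6 below (3.51%, 8.7%). In both resupply comparisons the share above was larger among the members than among all features, with no test of this difference. Among the other miRNA rows it was 13.3% against +Fe and 9.09% against -Fe, so a larger share was not particular to the members. MIR5026, MIR850 and MIR863 are in both counts of the members. The 12 below in Fe resupply against +Fe had a median difference of -0.032, and the smallest was -0.0027. MIR2938, MIR5019 and MIR5021, which hold the same values near the lowest of the table, are counted separately there. So are MIR5998a and MIR5998b, also with the same values, among the 6 below in Fe resupply against -Fe.

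The summed back-transformed value of the class was highest after resupply. It was 8761, 8466 and 9013 in Fe resupply replicates 1 to 3, 7844, 8048 and 8059 in the -Fe libraries, and 8424, 8044 and 8164 in the +Fe libraries. The Fe resupply libraries all lay above the others, with 8466 as the lowest of them and 8424 as the highest +Fe library, but without MIR5026, MIR850 and MIR863 they overlapped with +Fe (7192 in +Fe replicate 1). The mean was 8747 ± 273 in Fe resupply, 7984 ± 121 in -Fe and 8210 ± 195 in +Fe (SD, n = 3 each), a difference of 763 (9.56%) against -Fe and of 536 (6.53%) against +Fe. Without those 3 miRNAs the differences were 396 (5.87%) and 130 (1.86%). As a share of all miRNA rows the class made up 3.68 ± 0.21% in Fe resupply, 3.39 ± 0.09% in -Fe and 3.12 ± 0.09% in +Fe, while the sum of the other miRNA rows was 229487, 227864 and 254628 in these conditions.

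MIR5026, MIR850 and MIR863 form a row of neighbours on the top strand of chromosome 4. Their hairpins extend from 7844496 to 7844688, from 7845707 to 7845927 and from 7846597 to 7846899 (TAIR10.1), a stretch of 2404 nt with gaps of 1018 and 669 nt. They lie in or across the end of AT4G13495, an annotated ncRNA gene of unknown function (7842967 to 7846774). Of their products, miR863-3p is known to target the kinase genes ARLPK1 and ARLPK2 and later SERRATE, a partner of DCL1, in bacterial infection.

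All 3 had their highest values in the Fe resupply libraries. MIR850 stood at 6.59, 6.44 and 6.76 in Fe resupply, 6.17, 6.05 and 6.27 in -Fe and 6.11, 6.10 and 6.16 in +Fe. Its log2 fold change was 0.48 ± 0.10 (SE) in Fe resupply against +Fe (adjusted p = 0.0843, limma) and 0.44 ± 0.10 against -Fe (adjusted p = 0.0533, limma), just short of the fold limit. MIR863 stood at 9.39, 9.15 and 9.77 in Fe resupply, 8.88, 9.10 and 9.11 in -Fe and 9.01, 8.99 and 8.94 in +Fe, with fold changes of 0.46 ± 0.12 (adjusted p = 0.274, limma) and 0.40 ± 0.12 (adjusted p = 0.161, limma). Neither of these passed, and replicate 3 was the highest of the Fe resupply libraries at both loci. MIR5026 stood at 9.60, 9.44 and 9.92 in Fe resupply, 9.37, 9.30 and 9.37 in -Fe and 9.33, 9.33 and 9.25 in +Fe, with fold changes of 0.35 ± 0.11 and 0.31 ± 0.11 (adjusted p = 0.431 and 0.246, limma). For each of the 3 miRNAs the Fe resupply libraries lay above all 6 others, while -Fe and +Fe overlapped and differed by at most 0.05.

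Fe resupply replicate 2 was the lowest of its condition at each of these 3 loci. Without it, MIR850 passed both limits against +Fe (0.56, adjusted p = 0.0376, limma) and against -Fe (0.52, adjusted p = 0.0428), and so did MIR863 (0.60, adjusted p = 0.0331, and 0.55, adjusted p = 0.0428). Without Fe resupply replicate 3, the highest, MIR863 differed by only 0.29 from +Fe (adjusted p = 0.852, limma) and 0.24 from -Fe (adjusted p = 0.516), and MIR5026 by 0.21 from +Fe and 0.18 from -Fe. Over the 17 other settings the adjusted p of MIR850 ran from 0.0376 to 0.510 against +Fe and from 0.0385 to 0.257 against -Fe, and that of MIR863 from 0.0331 to 0.852 and from 0.0428 to 0.516. Replicate 2 also had the lowest summed value over all features of the 9, 8503760 against 9176490 to 9831410 in the others, and its part in these values was not tested.

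The small RNA clusters of the stretch show where the higher values lay. The clusters over the 3 hairpins (Cluster_2954, Cluster_2955 and Cluster_2956) differed between Fe resupply and +Fe by 0.34, 0.48 and 0.46 on the log2 scale, but they lie over the same hairpins in the same libraries and are not taken as a second measurement. Cluster_2953, at the start of AT4G13495 upstream of MIR5026, was led by a 24 nt RNA and differed by -0.03 ± 0.11 from +Fe and by 0.09 ± 0.11 from -Fe. Cluster_2957, over the last part of the MIR863 hairpin and beyond it, differed by 0.13 ± 0.09 and 0.20 ± 0.09. The annotated miR863-3p (7846835 to 7846855) lies within Cluster_2957 (7846789 to 7847046). By contrast, miR863-5p (7846644 to 7846664) lies within Cluster_2956 (7846400 to 7846712). The higher values of the MIR863 row are therefore not shown to be those of miR863-3p.

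The RNA that leads these clusters is the annotated mature miRNA at MIR5026 only. At MIR850 and MIR863 the lead RNAs, both of 21 nt and from the hairpin strand, are shown here because they differ from the RNAs the rows are named for.
Lead RNA at MIR850: uuaguugucgucguaucuuug
Lead RNA at MIR863: uuguugaucucaauagcauug
The first shares no run longer than 3 bases with miR850. This measure cannot tell an RNA of the other arm of the hairpin from an unrelated one, and the arm was not examined. The second shares 14 bases with miR863-5p and lies further along the same arm. The share of each RNA in the row values was not measured.

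**Figure D4:**
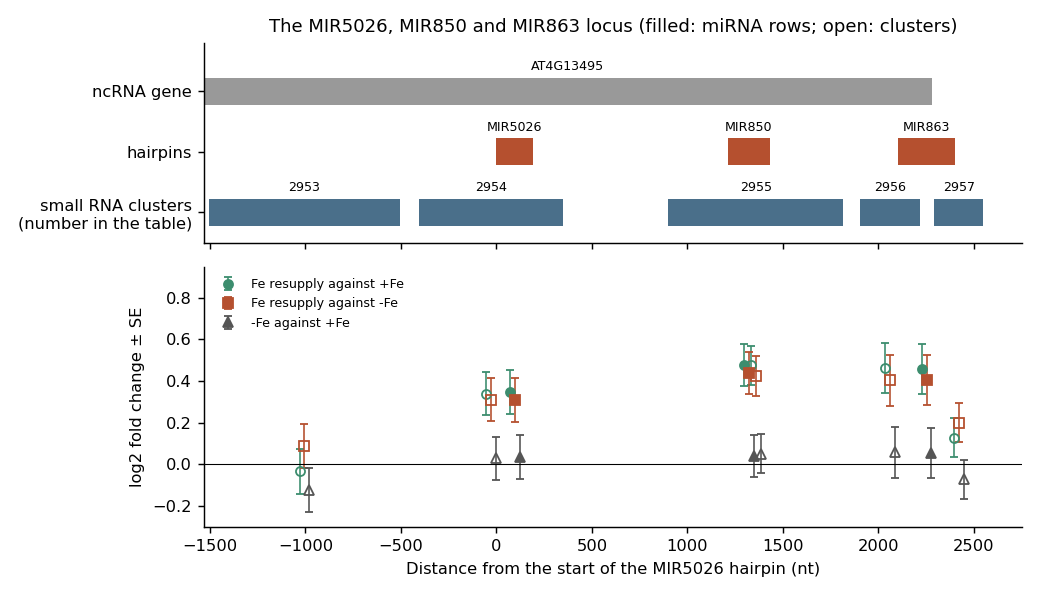
Map of the MIR5026, MIR850 and MIR863 stretch (top) with the log2 fold change ± SE of its miRNA rows (filled) and clusters (open) in the 3 comparisons (bottom), by distance in nt from the start of the MIR5026 hairpin. The 3 rows and Cluster_2954, Cluster_2955 and Cluster_2956 lie between 0.31 and 0.48 in both resupply comparisons, while Cluster_2957, over the end of the MIR863 hairpin, lies at 0.13 and 0.20 and Cluster_2953 at -0.03 and 0.09.

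MIR845a and MIR845b had their lowest values in -Fe. These miRNAs pair with the primer-binding sites of retrotransposons, and in pollen miR845b is known to trigger siRNAs from these elements. The loci lie on the bottom strand of chromosome 4 (12217406 to 12217568 and 12214069 to 12214167, TAIR10.1), 3238 nt apart, and at both the lead RNA is the mature miRNA. MIR845a stood at 8.78, 9.03 and 8.97 in -Fe and at 9.42, 9.11 and 9.76 in +Fe, a log2 fold change of -0.50 ± 0.16 (adjusted p = 0.284, limma) with no overlap. In Fe resupply it stood at 8.92, 9.65 and 9.03, so that replicate 2 lay among the +Fe values and the others among those of -Fe. MIR845b gave 7.44, 7.80 and 7.58 in -Fe and 8.01, 7.76 and 8.33 in +Fe, a difference of -0.43 ± 0.16 (adjusted p = 0.407, limma) with overlap, and 7.63, 8.33 and 7.77 in Fe resupply.

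MIR845a was the only member at the fold limit. It passed in a fit of only the -Fe and +Fe libraries (adjusted p = 0.0593, limma) and in one without Fe resupply replicate 2 (adjusted p = 0.0663, limma), both with the same fold change, and its adjusted p over the 17 other settings ran from 0.0593 to 0.666. The summed value of the pair was 684 ± 68 in -Fe and 968 ± 213 in +Fe (SD, n = 3 each).

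MIR8175 had its highest values in -Fe, while its Fe resupply and +Fe values overlapped. It stood at 8.78, 8.23 and 8.40 in Fe resupply, 8.87, 8.93 and 8.98 in -Fe and 8.61, 8.69 and 8.45 in +Fe. The -Fe libraries lay above all others, by 0.35 ± 0.12 against +Fe (adjusted p = 0.342, limma), and Fe resupply against -Fe gave -0.46 ± 0.12 (adjusted p = 0.0824, limma). Without Fe resupply replicate 1, the highest of its condition, Fe resupply against -Fe passed at -0.61 (adjusted p = 0.00257, limma), and its adjusted p over the 17 other settings ran from 0.00257 to 0.351.

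The sequence of miR8175 is also found at a tRNA end. With the CCA that is added to tRNAs, the annotated miRNA occurs in 22 tRNA genes, and the lead RNA of its cluster, of 18 nt, occurs in 23, all of them tRNA-Asp and at the 3′ end.
Lead RNA at MIR8175: uccccggcaacggcgcca
This RNA matches 11 places of the genome and is miR8175 without its first bases. Reads from tRNA-Asp and from the hairpin on chromosome 2 (3740797 to 3740985) cannot be told apart.

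MIR5664 and MIR5652 were further members without overlap. MIR5664 (chromosome 1, 17386795 to 17387008) stood at 4.18, 4.22 and 3.96 in Fe resupply, 4.33, 4.42 and 4.42 in -Fe and 4.03, 4.07 and 3.88 in +Fe. Its -Fe libraries lay above all others, by 0.40 ± 0.10 against +Fe (adjusted p = 0.0800, limma, from 0.0575 to 0.364 over 16 other settings), and Fe resupply against -Fe gave -0.27 ± 0.10 (adjusted p = 0.278, limma). MIR5652 (chromosome 1, 23412989 to 23413436) stood at 8.40, 8.42 and 8.48 in Fe resupply, 8.24, 8.08 and 8.05 in -Fe and 8.04, 8.15 and 7.92 in +Fe, with fold changes of 0.40 ± 0.09 and 0.31 ± 0.09 in the resupply comparisons (adjusted p = 0.164 and 0.173, limma). It lies across from AT1G63130, a gene of a TPR-like protein that the annotation lists as a source of trans-acting siRNAs. The lead RNA of its cluster has 8 exact matches in the genome and none in the hairpin.

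**Figure D5:**
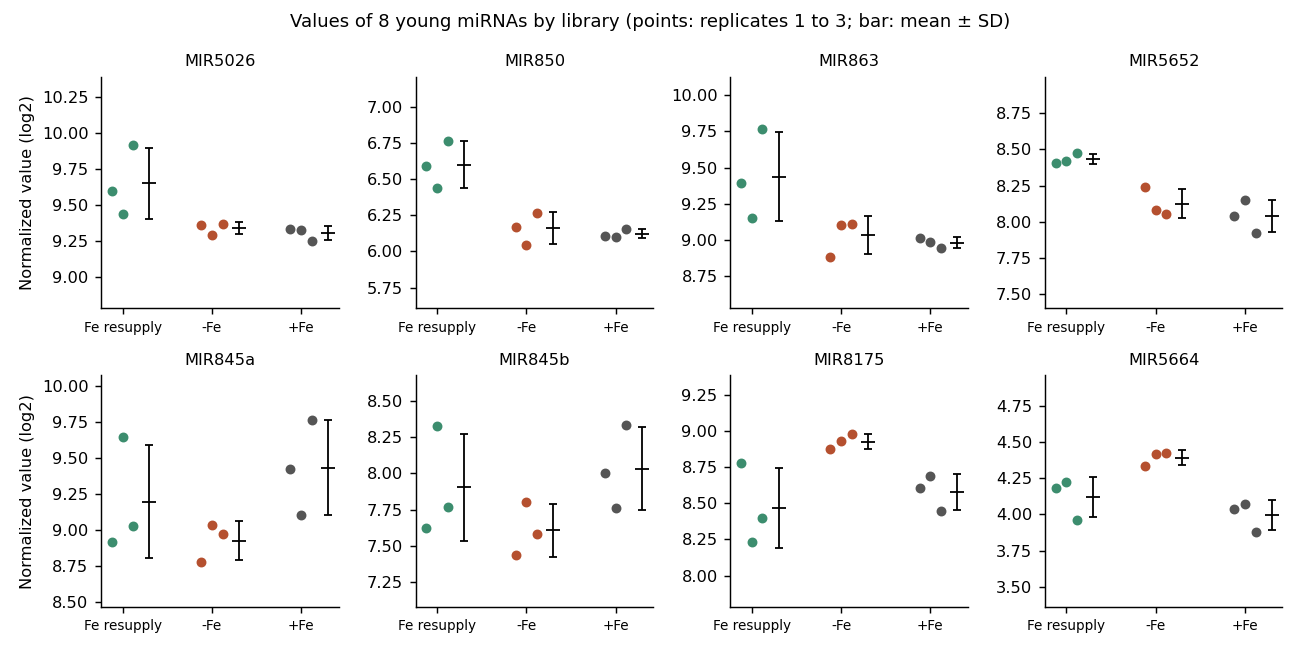
Normalized value (log2, vertical axis, each panel spanning 1.6 units) of 8 young miRNAs in the libraries of Fe resupply, -Fe and +Fe, with points for replicates 1 to 3 from left to right and the mean ± SD beside them. The Fe resupply points lie above all others for MIR5026, MIR850, MIR863 and MIR5652, the -Fe points lie above all others for MIR8175 and MIR5664, and MIR845a and MIR845b spread widely in Fe resupply and +Fe.

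MIR5663 and MIR865 were members of middle abundance without overlap in a pair of comparisons. MIR5663, led by a 21 nt RNA offset from its mature miRNA, stood at 6.23, 6.12 and 6.39 in Fe resupply, 6.12, 5.99 and 5.88 in -Fe and 5.85, 6.09 and 5.94 in +Fe. Fe resupply exceeded -Fe by 0.25 ± 0.10 and +Fe by 0.29 ± 0.10 (adjusted p = 0.362 and 0.603, limma), and the lowest Fe resupply library lay next to the highest -Fe library. MIR865, whose lead RNA shares 14 bases with its mature miRNA but has no exact match in the hairpin or genome, lay above +Fe in both other conditions, with 6.71, 6.75 and 6.84 in Fe resupply, 6.69, 6.91 and 6.74 in -Fe and 6.60, 6.41 and 6.56 in +Fe. Its differences from +Fe were 0.24 ± 0.10 in Fe resupply and 0.25 ± 0.10 in -Fe (adjusted p = 0.663 and 0.456, limma).

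Other abundant members varied more between replicates. MIR5020b stood at 7.87, 7.44 and 7.97 in Fe resupply, 7.71, 7.89 and 7.66 in -Fe and 7.28, 7.47 and 7.49 in +Fe. Its -Fe libraries lay above those of +Fe by 0.34 ± 0.12 (adjusted p = 0.377, limma), and Fe resupply against +Fe gave 0.35 ± 0.12 (adjusted p = 0.581, limma), which passed at 0.51 (adjusted p = 0.0706, limma) without Fe resupply replicate 2. MIR3932b stood at 8.57, 7.80 and 8.72 in Fe resupply and at 7.97, 7.79 and 8.18 in -Fe, a difference of 0.38 ± 0.19 (adjusted p = 0.457, limma) that passed at 0.67 (adjusted p = 0.0846, limma) without the same library. Over the 17 other settings, MIR5020b in Fe resupply against +Fe ran from 0.24 to 0.51 (adjusted p from 0.0706 to 0.908, limma). MIR3932b in Fe resupply against -Fe ran from 0.20 to 0.67 (adjusted p from 0.0846 to 0.792, limma). MIR843 had the widest range of all members, 1.79, through +Fe replicate 1 at 9.61 against 8.20 and 7.83 in the other +Fe libraries.

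MIR846 and MIR842 are neighbours of unlike level. miR846 and miR842, which act on jacalin-like lectin genes and come from one transcript, have hairpins 109 nt apart on chromosome 1, yet MIR846 had a mean of 8.45 and MIR842 of 2.19. MIR846 differed by at most 0.02 in the 3 comparisons. MIR842 stood at 2.31, 2.27 and 2.28 in Fe resupply, 2.13, 2.18 and 2.11 in -Fe and 2.15, 2.09 and 2.17 in +Fe, a difference of 0.14 ± 0.06 and 0.15 ± 0.06 (adjusted p = 0.418 and 0.693, limma) without overlap.

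A further 6 members with a known role had means between 2.78 and 5.84. MIR838, whose hairpin lies in DCL1, had a mean of 4.36 and MIR840 one of 5.74. MIR844 (CDS3) had 5.10 and MIR847 (IAA28, an auxin response repressor) had 5.84. MIR856 (CHX18, a cation exchanger) had 4.30 and MIR859 (F-box genes) had 2.78. The largest fold change among these 6 was 0.21 ± 0.10, for MIR844 in Fe resupply against +Fe (adjusted p = 0.751, limma), with Fe resupply at 5.37, 5.03 and 5.15 and +Fe between 4.91 and 5.02.

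Members that lay lower in -Fe or Fe resupply than in +Fe without overlap had small differences, MIR845a apart. MIR831 stood at 3.02, 2.86 and 2.98 in -Fe and at 3.13, 3.09 and 3.44 in +Fe, a difference of -0.27 ± 0.10 (adjusted p = 0.462, limma) that was -0.15 without +Fe replicate 3, the library at 3.44. MIR8171 differed by -0.16 ± 0.08 in the same comparison. In Fe resupply against +Fe the largest differences of this direction without overlap were -0.22 ± 0.12 for MIR5630b, -0.21 ± 0.11 for MIR8176 and -0.11 ± 0.06 for MIR854d. That of MIR5630b was -0.06 without +Fe replicate 3, and that of MIR8176 was -0.11 without Fe resupply replicate 3. Clusters at these 3 were led by RNAs not found in the hairpin, and MIR8176 overlaps an annotated snoRNA.

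MIR835, in the gene of the LYR family protein named above, stood at 5.11, 5.17 and 5.25 in Fe resupply, 5.17, 5.05 and 5.09 in -Fe and 4.79, 4.76 and 4.84 in +Fe. Both conditions lay above +Fe without overlap, by 0.38 ± 0.09 in Fe resupply (adjusted p = 0.165, limma) and by 0.31 ± 0.09 in -Fe (adjusted p = 0.206, limma). The lead RNA there was not found in the hairpin.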

How the data were processed

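The 9 small RNA-seq libraries came from Col-0 shoots, 3 for each of 3 conditions. The authors removed adapters with Cutadapt, aligned and counted small RNAs with ShortStack on TAIR10, and compared raw counts with DESeq2. The authors deposited log2 normalized values, one per feature and library, which include negative numbers and vary little at low abundance, in the form of a regularized logarithm. The transformation is not given in the sources used here, the depth is unknown, and fold changes of scarce rows may be understated on this scale. How reads were given to the miRNA rows is not given either.

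Each column was assigned to a library from the condition and number in its header. After removal of 12 constant features, 33159 entered a single limma fit of the 9 libraries (version 3.58.1, R 4.3.3; eBayes, mean trend), and p-values were adjusted over all of them by Benjamini-Hochberg. The limits were an FDR under 0.1 and an absolute log2 fold change from 0.5 upwards. This fit was tested on simulated data. The planted changes were larger than any seen among the members and were placed only in rows that were not scarce. Lists were described by counts and medians, without tests. Hairpins and mature sequences were taken from RefSeq for TAIR10.1, where all 326 miRNA rows were matched by name, and each hairpin was joined to the cluster overlapping it. Python 3.11.15 and pandas 2.3.3 were used.

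The members, lists and rules were chosen with earlier results of these data known. The miRNAs named were the 10 with the highest and the 3 with the lowest means (5, as they were tied), the 3 largest differences in each direction without overlap per comparison, and those with a known role. MIR835, MIR865, MIR5663, the clusters beside MIR850 and the families with several rows were named after their values were seen. Alternatives tried were 2 filters on scarce features, 1 added before the logarithm, median centring, quantile normalization, fits limited to the conditions compared, no mean trend, other limits, a replicate block, and fits that leave out a single library.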

Additional observations from a re-analysis of the deposited data

How the results depend on the processing

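No young miRNA passed in the 3 comparisons or under most alternatives. With no fold limit MIR5664 passed in -Fe against +Fe (a count of 1), MIR850 in Fe resupply against +Fe (also 1), and MIR850 with MIR8175 in the comparison of Fe resupply with -Fe (2), and a fit of only the -Fe and +Fe libraries gave 1 (MIR845a). With each replicate left out in turn, the counts ran from 0 to 1, from 0 to 3 and from 0 to 3 in that order. The calls came without Fe resupply replicate 2 (MIR845a in the first comparison, MIR850, MIR863 and MIR5020b in the second, MIR850, MIR863 and MIR3932b in the last) and without Fe resupply replicate 1 (MIR8175 in the last). The cause was not tested.

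The median log2 fold change of the class stayed near 0. In -Fe against +Fe it was 0.022 among the 41 rows whose back-transformed mean reached 50, and between -0.014 and 0.0060 with a replicate left out. In Fe resupply against +Fe it was 0.041 among the 88 rows whose mean reached 10, 0.087 among those at 50 or more, 0.029 after median centring, and between 0.0073 and 0.029 with a replicate left out. In Fe resupply against -Fe it was 0.050, 0.091 and 0.039 in these settings, 0.015 with 1 added before the logarithm, and between 0.015 and 0.036 with a replicate left out. The filters keep fewer rows, and otherwise the cause was not tested.

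Without the most abundant row, MIR5026, the summed value was 7934 in Fe resupply, 7334 in -Fe and 7578 in +Fe, lower by construction. With a replicate left out it ran from 8614 to 8887, from 7946 to 8054 and from 8104 to 8294 in these conditions. Of 241 values of single named miRNAs under the alternatives, 235 kept their direction and their side of the limits, 6 passed only under the alternative, and 0 changed sign. These were the largest differences without overlap in each comparison, so leaving out a library could not change their sign. Where libraries overlapped, the sign of some named miRNAs did change. That of MIR3932b ran from -0.22 to 0.12 in -Fe against +Fe, and that of MIR5020b from -0.10 to 0.16 in Fe resupply against -Fe.

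The replicate numbers were not taken as pairing the samples. Deviations from the group means correlated between -0.059 and 0.10 for same-numbered libraries and between -0.12 and 0.16 for differently numbered ones. These values cannot show whether samples were paired by design. With the replicate block, 0 young miRNAs passed in each comparison, as without it. Depth is unknown, so no limit of detection was computed, and in scarce rows a small difference may be a larger one before the transformation.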
